A study of Mus musculus with 24 samples.

Results

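The interferon response and antigen presentation genes described here are 38 genes chosen by name, out of 37074 gene names on the array. A gene's probes were those whose gene name in the scanner files matched it exactly. All 38 genes had at least 1 probe among the 30003 that passed the filter on dim probes, and the probe used for each of them was well above background on all 24 arrays, so that none entered through 1 group alone. The samples were whole livers of 24 mice, all C57bl/6J males from the third generation bred in the study, each hybridised to 1 array. The reference mice (9 arrays, labelled STD_Cont) came from the control lineage, whose growing diet held high-oleic sunflower oil, and ate a low-fat diet. The HFoleic mice (8 arrays, labelled HFD_Cont) came from the same lineage and ate a diet high in fat and sucrose. The HFepa mice (7 arrays, labelled HFD_O3) ate that same obesogenic diet and came from a lineage bred with fish oil rich in the omega 3 fatty acid eicosapentaenoic acid (EPA). All mice were killed during fasting, their ages were not given in the sources used here, and EPA-lineage mice on the low-fat diet were not analysed here, so HFepa against reference changes diet, lineage and oil at once. Values are log2 of the quantile-normalised median spot signal, a difference of 1 being a doubling, and levels of different probes are not comparable with each other.

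Interferons are cytokines released when cells sense viral or bacterial products. Type I interferons signal through receptors and JAK kinases to a transcription factor complex called ISGF3, which binds a promoter element called ISRE, while interferon gamma acts on a shorter element called GAS. The genes so induced encode antiviral proteins, cytosolic sensors of viral RNA, chemokines that attract T cells, GTPases that attack intracellular pathogens, and the machinery that cuts proteins into peptides and shows them on MHC class I molecules to CD8 T cells. In liver they are expressed by hepatocytes as well as by Kupffer cells, endothelial cells and lymphocytes. In whole tissue, fewer cells of a type and less RNA per cell cannot be told apart.

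Letters of these 2 promoter elements were sought in the RefSeq promoter windows (build GRCm38.p6), which run from 250 bases before to 50 after the start site and were at hand for 31 of the 38 genes. The ISRE letters searched, on either strand, were GAAA, any 2 bases and GAAA again, where matches could overlap, and the GAS letters were TTCNNNGAA, which read the same on both strands. ISRE letters stood in a window of 15 of the 31 genes (48.4%), against 3.99% of the 27025 gene symbols in the table. GAS letters stood in 7 of the 31 (22.6%), against 9.55% of all symbols. The genes were chosen by name as interferon response genes, so these shares describe the list and test nothing. Igtp, Irgm2 and Oas1a had both, and 12 genes had neither. The ISRE letters were found in each of the 5 GTPase genes that have a window, in 5 of 10 antiviral effectors and in both RNA sensors with a window, but in none of the 3 immunoproteasome genes. The following stretches, all upstream of the start site and written 5′ to 3′ along the gene, carry the matches in capitals and are shown because they cover both elements, single, repeated and side by side.
Irf1 (chr11:53769909-53769947, plus strand): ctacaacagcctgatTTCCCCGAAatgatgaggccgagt
Isg15 (chr4:156200860-156200911, minus strand): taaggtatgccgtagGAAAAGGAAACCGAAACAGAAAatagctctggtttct
Ifit1 (chr19:34640770-34640828, plus strand): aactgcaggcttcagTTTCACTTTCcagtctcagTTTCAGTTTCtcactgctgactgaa
Gbp2 (chr3:142620589-142620628, plus strand): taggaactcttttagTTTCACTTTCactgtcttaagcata
Igtp (chr11:58199496-58199546, plus strand): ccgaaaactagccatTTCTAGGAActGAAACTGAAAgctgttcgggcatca
Irgm2 (chr11:58214887-58214937, plus strand): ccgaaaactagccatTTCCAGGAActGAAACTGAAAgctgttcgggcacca
B2m (chr2:122147533-122147572, plus strand): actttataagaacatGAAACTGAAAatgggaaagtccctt
Irf1 has a single GAS match that begins 90 bases before the start site and no ISRE match. Isg15 holds 3 ISRE matches that overlap each other, and Ifit1 holds 2 that do not. Igtp and Irgm2, which encode related GTPases, carry the GAS and ISRE letters 11 bases apart from first letter to first letter, and these 2 stretches of 51 bases are identical at 49. The windows of Psmb9 and Tap1, which lie head to head on chromosome 17, share 275 bases and hold neither element. A match is a description of letters and not of binding, and the absence of one says only that these letters are not in the window.

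**Figure D1:**
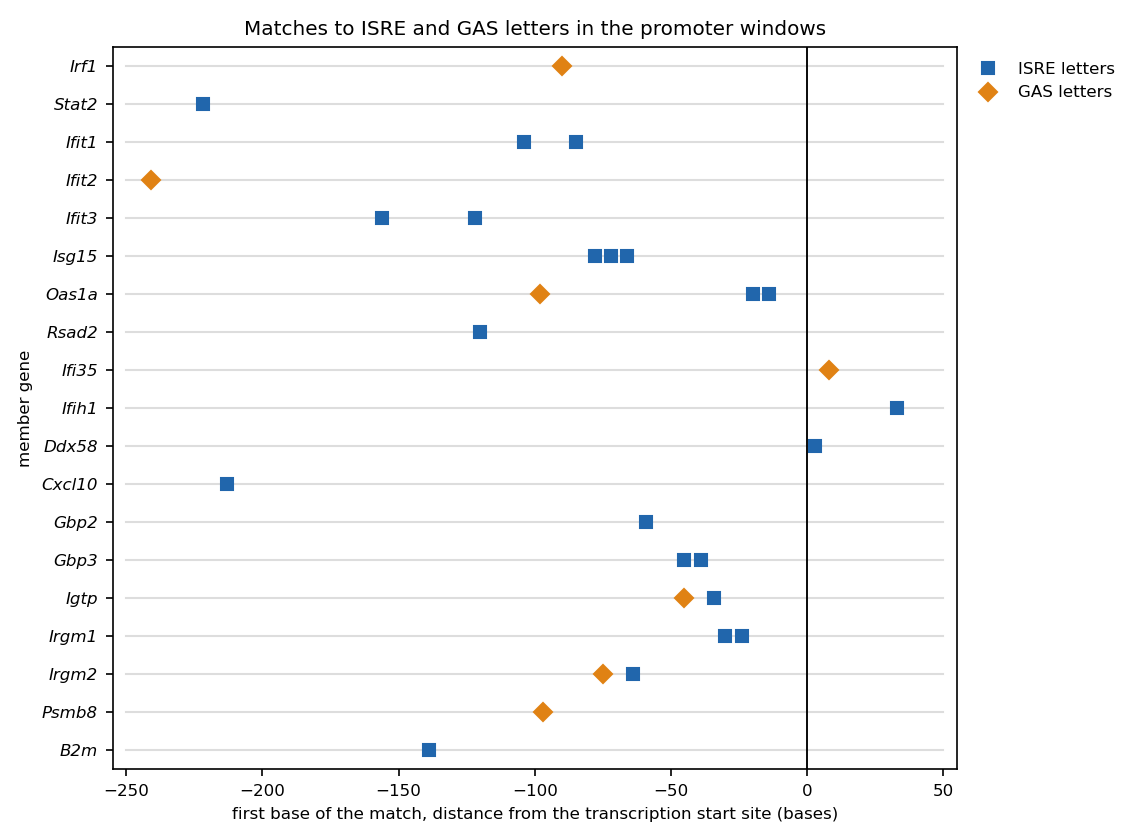
Positions of ISRE (squares) and GAS (diamonds) letters in the promoter windows of the 19 genes that have a match, as the distance in bases of the first letter from the transcription start site (vertical line). The matches of the GTPase genes Gbp2, Gbp3, Igtp, Irgm1 and Irgm2 lie within 75 bases upstream, whereas those of Stat2, Ifit2 and Cxcl10 lie 213 to 241 bases upstream.

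On all arrays 28804 to 34432 probes were well above background, and no spot was marked as saturated. The hepatocyte markers Alb, Apoa1, Ttr, Tat, Cps1, Ass1, Cyp2e1 and Cyp3a11 were all above the filter, whereas the T and NK cell markers Cd8a, Gzmb, Ncr1 and Klrb1c and the B cell marker Cd79a were below it. Reference replicate 5 stood apart: it was the highest or the lowest of the 24 mice for 13.1% and 18% of the probes with complete values, and its bile duct and stellate cell marker lists lay 1.61 and 1.62 above their mean over all mice (log2). It was also the highest reference mouse for the B and plasma cell (0.83), dendritic cell (0.64), neutrophil and monocyte (0.36) and antiviral effector (0.71) lists. The hepatocyte, Kupffer cell, T and NK cell, sinusoidal endothelial, blood, exocrine pancreas and adipocyte lists were highest in other reference mice.

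Of the 38 genes, 5 (13.2%) differed between HFoleic and reference at an adjusted p under 0.05, against 7.23% of all probes, with 4 higher in HFoleic (4.05% of all probes were higher) and 1 lower (3.19% of all probes were lower). The 4 that rose were Irf1, Iigp1, Psmb10 and B2m, and the 1 that fell was Usp18. By the files' coordinates (mm9) the probe of Irf1 lies at chr11:53590746-53590805, that of Usp18 at chr6:121220874-121220933, that of Psmb10 at chr8:108459677-108459736 and that of B2m at chr2:121978401-121978460. At an unadjusted p under 0.05 the genes numbered 8, or 21.1%, which is also the share of all probes. The 5 higher ones (11.6% of all probes were higher) include Gbp2, and the 3 lower ones (9.53% of all probes) include Irf7 and Rsad2.

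Irf1, a transcription factor that is induced by interferon gamma and itself switches on antigen presentation genes, carries the GAS match printed above. Its level ranged from 11.38 through a median of 11.55 to 11.97 in the reference mice and from 11.71 through 12.04 to 12.33 in the HFoleic mice. All 8 HFoleic mice lay above the reference mean and 4 above every reference mouse. The difference was 0.44 ± 0.13 (SE), a 1.35-fold rise (adjusted p = 0.0333, limma with Benjamini-Hochberg adjustment over all probes). A second, dimmer probe of Irf1 differed by 0.42 (adjusted p = 0.0701). The call was lost without reference replicate 1, 2, 6 or 7 or without HFoleic replicate 2, 6, 7 or 8, with adjusted p between 0.0534 and 0.0721.

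Iigp1, an immunity-related GTPase, ran from 14.23 through 14.47 to 14.77 in reference mice and from 14.49 through 14.94 to 15.05 in HFoleic mice. HFoleic replicate 4 was the lowest of its group, the next mouse being at 14.73, and 6 of 8 HFoleic mice exceeded every reference mouse. The difference of 0.39 ± 0.09 (SE) had the smallest adjusted p of the 38 genes, 0.00712. The dimmer second probe of Iigp1 differed by 0.17 (adjusted p = 0.494).

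Psmb10 encodes an inducible catalytic subunit that replaces a constitutive one when the immunoproteasome forms. It ran from 12.35 through 12.62 to 13.03 in reference mice and from 12.61 through 13.12 to 13.46 in HFoleic mice. Of the 8 HFoleic mice, 5 were above every reference mouse, while HFoleic replicate 4, at 12.61, lay beside the reference median. The difference was 0.46 ± 0.12 (SE), or 1.38-fold (adjusted p = 0.0154).

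B2m, whose promoter stretch with an ISRE match is printed above, encodes beta-2 microglobulin, the invariant light chain of MHC class I. It varied least of all 38 genes within groups (SD 0.111). Reference mice ran from 16.16 through 16.28 to 16.47 and HFoleic mice from 16.38 through 16.49 to 16.60, with 6 of 8 HFoleic mice above every reference mouse. The rise was small, 0.22 ± 0.06 (SE) or 1.17-fold (adjusted p = 0.0208). With the processed signal scaled to each array's 75th percentile the difference was 0.17 (adjusted p = 0.180). A dimmer probe of B2m went the other way, with means of 9.06 in reference and 8.88 in HFoleic mice and a difference of -0.18 (adjusted p = 0.233), so that the rise rests on the brighter probe.

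Usp18, an enzyme that removes ISG15 from proteins and dampens signalling at the type I interferon receptor, was the member with the largest difference. Its values spread from 9.36 through 9.99 to 11.00 in reference mice and from 8.84 through 9.20 to 9.70 in HFoleic mice. The 8 HFoleic mice all lay below the reference mean, and 5 lay below every reference mouse, while reference replicates 1 and 5, at 11.00 and 10.87, stood well above the others. Usp18 fell by 0.80 ± 0.23 (SE) in HFoleic, or 1.74-fold (adjusted p = 0.0358). The call was lost without reference replicate 1, 5 or 7 or HFoleic replicate 1, 3, 4, 7 or 8 (adjusted p 0.051 to 0.075, difference -0.81 to -0.68), and within slides the difference ran from -1.20 on slide 1 to -0.15 on slide 3.

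**Figure D2:**
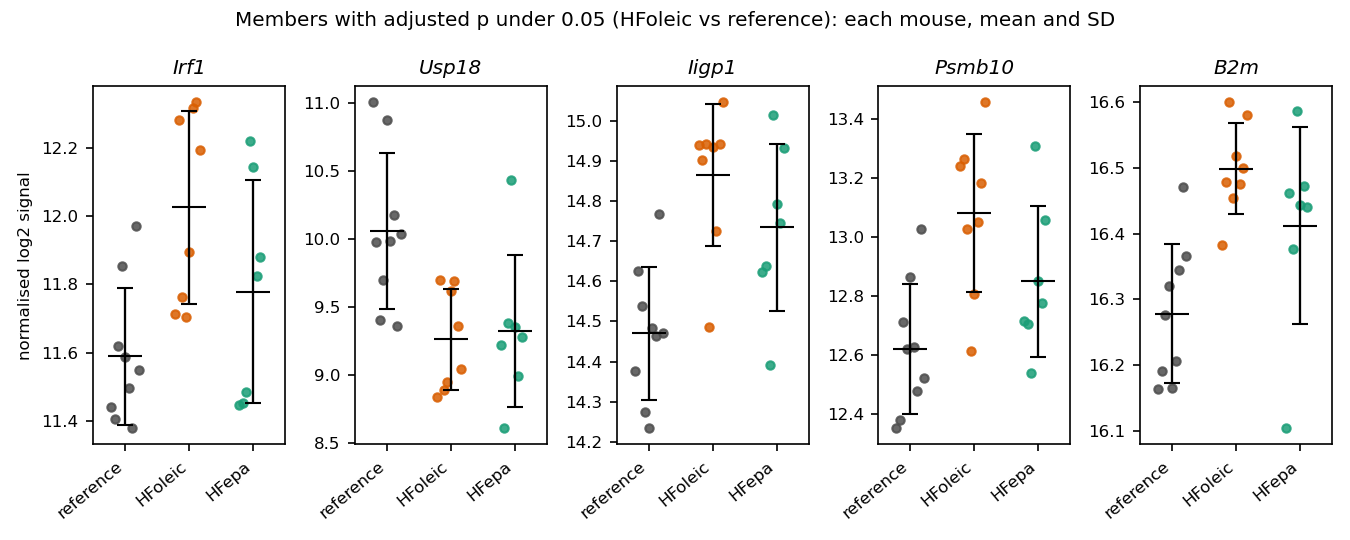
Normalised log2 signal of Irf1, Usp18, Iigp1, Psmb10 and B2m in each mouse (points), with the mean and SD of each group (bars), for 9 reference, 8 HFoleic and 7 HFepa mice; each panel has its own scale. HFoleic mice lie higher than reference mice for all but Usp18, and the groups overlap in every panel.

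For the 4 genes that rose, all 3 slides gave the same sign, with differences of 0.30 to 0.55 for Irf1, 0.19 to 0.55 for Iigp1, 0.16 to 0.63 for Psmb10 and 0.12 to 0.30 for B2m, the smallest always on slide 3. Without 1 mouse at a time, 3 to 6 of the 38 genes were called. The count was 3 without reference replicate 1 or 7 or HFoleic replicate 7 or 8.

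The other 33 genes did not pass the test between HFoleic and reference. Among the 17 chemokine, GTPase, immunoproteasome and class I genes, 15 had higher means in HFoleic, the called ones included, with a median difference of 0.22 log2. Among the 21 regulators, effectors and sensors, 9 had higher means, with a median of -0.07, and 17 were lower on slide 1 and 13 on slide 2 but 15 higher on slide 3. Over all probes the median was -0.0007 and 49.8% were higher. All 6 GTPases were higher, from 0.12 for Irgm1 to 0.56 for Gbp2, a guanylate-binding protein that attacks pathogen-containing vacuoles (adjusted p = 0.0966). The chemokines Cxcl9 and Cxcl10, ligands of CXCR3 on T cells, differed by 0.53 and 0.54 but varied most between mice of a group (SD 0.707 and 0.615), and neither passed (adjusted p = 0.361 and 0.272). Dhx58, a regulator of the RNA sensors, had the largest t of its role, with a difference of -0.28 (adjusted p = 0.240). Of the 14 antiviral effectors 9 were lower, with Rsad2, the antiviral enzyme viperin, at -0.42 and Oasl1, a repressor of Irf7 translation, at -0.42 next to Usp18 (adjusted p = 0.183 and 0.325). Ifit1, which binds viral RNA, had the same mean of 8.26 in both groups.

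**Figure D3:**
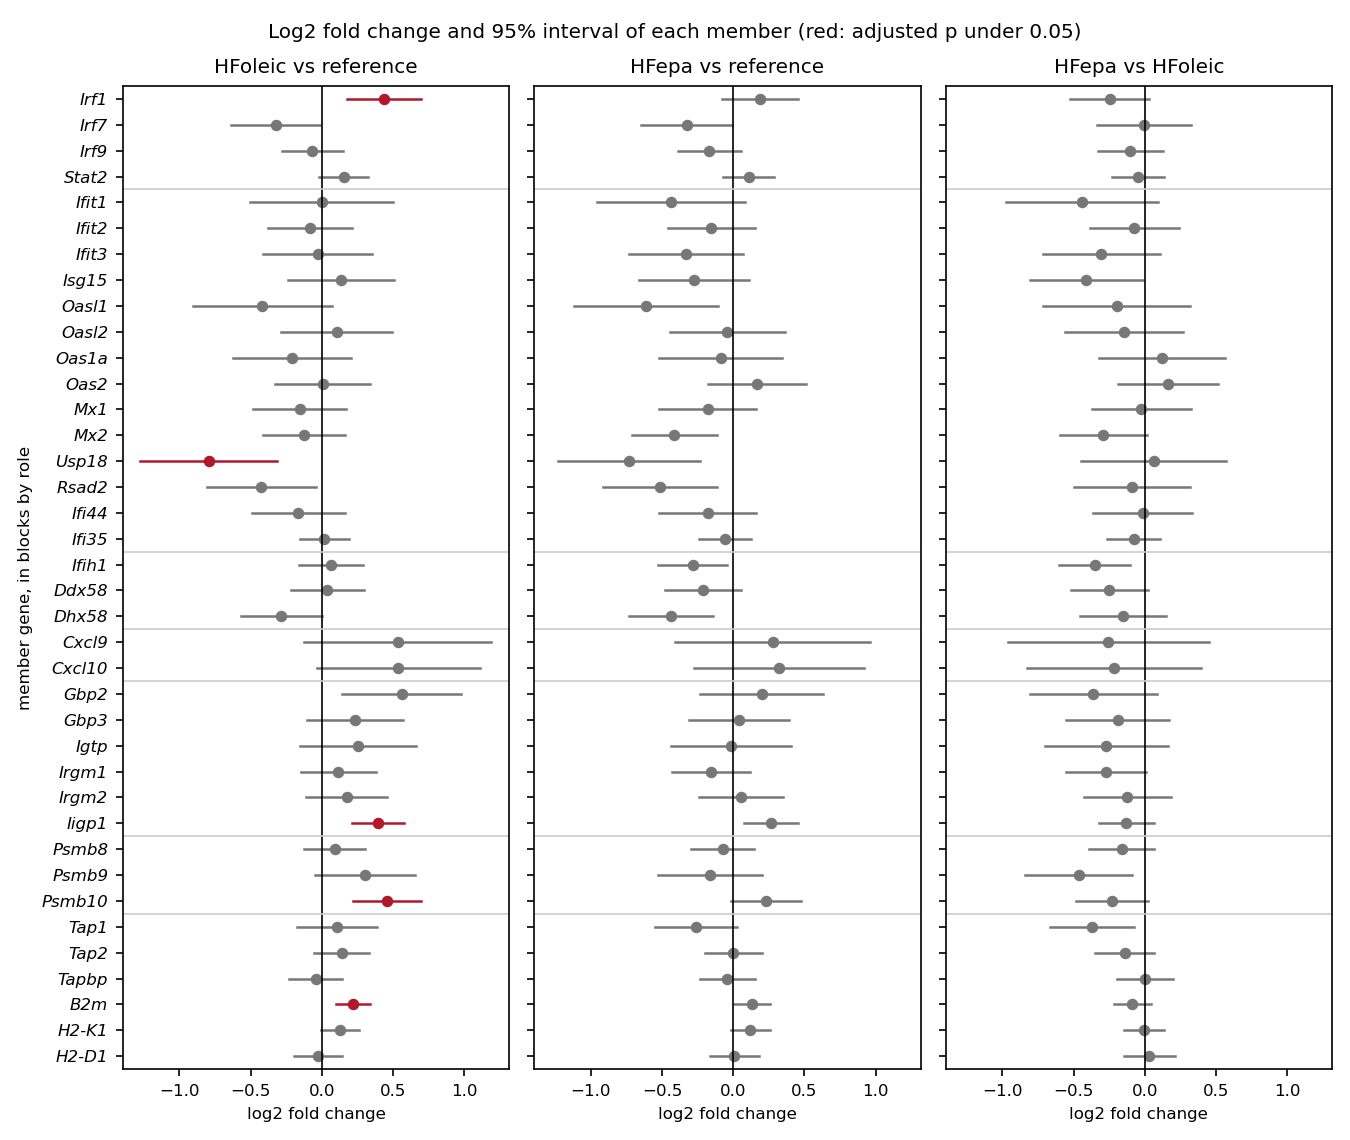
Log2 fold change (points) and 95% confidence interval (lines) of the 38 genes in the 3 comparisons, in blocks by role, with adjusted p under 0.05 in red. In HFoleic against reference the lower blocks lie mostly right of 0 and the upper blocks around or left of it, and in HFepa against HFoleic 33 of the 38 points lie left of 0.

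Between HFepa and reference none of the 38 genes was called by limma, where 0.393% of all probes were. At an unadjusted p under 0.05, 9 genes (23.7%) stood out, compared with 13.5% of all probes. Of these 9, Irf7, Dhx58, Ifih1, Mx2, Oasl1, Rsad2 and Usp18 were lower and B2m and Iigp1 higher. The methods' t-test called none of the 38 after adjustment. Over all probes 0.190% were called higher and 0.203% lower, and at the unadjusted threshold 7.07% were higher and 6.39% lower. The comparison shares its reference mice with the one above, so the likeness of some values between them is not independent.

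Usp18 had the smallest p of the 38 genes here, with HFepa mice from 8.61 through 9.28 to 10.44 against 9.36 through 9.99 to 11.00 in reference mice. HFepa replicate 4 was above all but 2 reference mice, whereas 5 of the 7 HFepa mice were below every reference mouse. The difference was -0.73 ± 0.24 (SE, adjusted p = 0.157), and it ran from -1.28 on slide 2 to 0.37 on slide 3, which holds HFepa replicates 4 and 7. Dhx58 spread from 7.91 through 8.48 to 9.15 in reference mice and from 7.42 through 8.01 to 8.64 in HFepa mice, with HFepa replicate 2 the lowest of all. Its difference was -0.44 ± 0.14 (SE, adjusted p = 0.159). Iigp1 ran from 14.39 through 14.75 to 15.02 in HFepa mice, 3 of them above every reference mouse, and differed from reference by 0.26 ± 0.09 (SE, adjusted p = 0.180). Its dimmer second probe differed by -0.02 (adjusted p = 0.976).

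Of the 38 genes 24 had lower means in HFepa than in reference and 14 higher, with a median difference of -0.08, whereas 51.7% of all probes were higher. By role, 2 of the 4 ISGF3 and interferon regulatory factor genes were lower, as were 13 of the 14 antiviral effectors and all 3 RNA sensors. The effectors had a median of -0.23 and the sensors one of -0.28. Within slides the 21 regulators, effectors and sensors were not always lower: 18 were lower on slide 1 and 17 on slide 2. On slide 3, with HFepa replicates 4 and 7, 19 were higher, with a median difference of 0.23. Oas2, an oligoadenylate synthetase, was the effector that was higher, at 0.17. Irf7, the factor that amplifies type I interferon production, differed by -0.33 (adjusted p = 0.361). Both chemokines had higher means than in reference, with Cxcl10 at 0.32 (adjusted p = 0.694). That value rested on HFepa replicate 4, at 11.43 with the next mouse at 9.94, and was 0.01 without it and 0.49 without HFepa replicate 2. The GTPases had a median of 0.05, and the class I and peptide loading genes a median of 0.004. In the immunoproteasome, Psmb10 was at 0.23 (adjusted p = 0.421) while Psmb8 and Psmb9 were at -0.07 and -0.16. B2m differed by 0.13 (adjusted p = 0.331), and its dimmer probe by -0.22.

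Between HFepa and HFoleic, the comparison that sets the 2 lineages side by side under the obesogenic diet, limma called 0 of the 38 genes and 0 of the 30003 probes (0%), and the methods' t-test also called none. At an unadjusted p under 0.05, 4 genes (10.5%) stood out beside 9.70% of all probes, namely Isg15, Ifih1, Psmb9 and Tap1, each lower in HFepa (5.46% of all probes were lower and 4.24% higher). Of the 38 genes 33 had lower means in HFepa, with a median difference of -0.15, whereas 51.8% of all probes were higher. The HFoleic mice are those of the first comparison, so a gene picked there for being high in them tends to be lower in HFepa here. Leaving out 1 mouse at a time gave 29 to 35 genes lower. Within slides the direction was not the same: 30 genes were lower on slide 1 and 37 on slide 2. On slide 3, with 2 HFepa and 3 HFoleic mice, 30 were higher and the median difference was 0.14. These 2 HFepa mice were replicates 4 and 7, so slide and mouse cannot be told apart there. With slide as a block in the fit, 31 of the 38 genes were lower.

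Ifih1, the sensor MDA5 of long double-stranded RNA, had the smallest p. Its HFepa values ran from 9.08 through 9.39 to 9.94 over 6 mice, since the spot of replicate 7 was marked as an outlier and left out, and its HFoleic values from 9.53 through 9.85 to 9.97. Of these 6 HFepa mice, 4 lay below every HFoleic mouse. The difference was -0.35 ± 0.12 (SE, adjusted p = 0.320). Tap1, a subunit of the transporter that carries peptides into the endoplasmic reticulum, ran from 9.30 through 9.95 to 10.51 in HFepa mice and from 9.91 through 10.47 to 10.64 in HFoleic mice, a difference of -0.37 ± 0.14 (SE, adjusted p = 0.387). Psmb9, the immunoproteasome subunit whose promoter window overlaps that of Tap1, ran from 9.83 through 10.55 to 11.43 in HFepa mice and from 10.49 through 10.98 to 11.48 in HFoleic mice. It differed by -0.46 ± 0.18 (SE, adjusted p = 0.389). For both genes HFepa replicate 2 was the lowest mouse and HFepa replicate 4 the highest of its group.

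The median difference between HFepa and HFoleic was below 0 in every role. It ran from -0.05 for the class I and loading genes, of which 2 of 6 were higher, to -0.25 for the RNA sensors. On slide 3, whose HFepa mice were replicates 4 and 7, most genes were higher in HFepa. These were 15 of the 17 chemokine, GTPase, immunoproteasome and class I genes and 15 of the 21 regulators, effectors and sensors. Irf1 differed by -0.25 (adjusted p = 0.570), Isg15, the ubiquitin-like modifier, by -0.41 (adjusted p = 0.498), Irgm1 by -0.27 (adjusted p = 0.527) and Cxcl9 by -0.25 (adjusted p = 0.862). The value of Cxcl9 was -0.09 without HFoleic replicate 8 and -0.44 without HFepa replicate 4, and ran from -1.19 on slide 2 to 0.49 on slide 3. Usp18 differed by 0.06, with a 95% interval from -0.45 to 0.57, so the difference between the 2 lineages was not resolved for this gene. The MHC class I heavy chains H2-K1 and H2-D1 differed by -0.01 (interval -0.15 to 0.13) and 0.03 (interval -0.15 to 0.21).

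**Figure D4:**
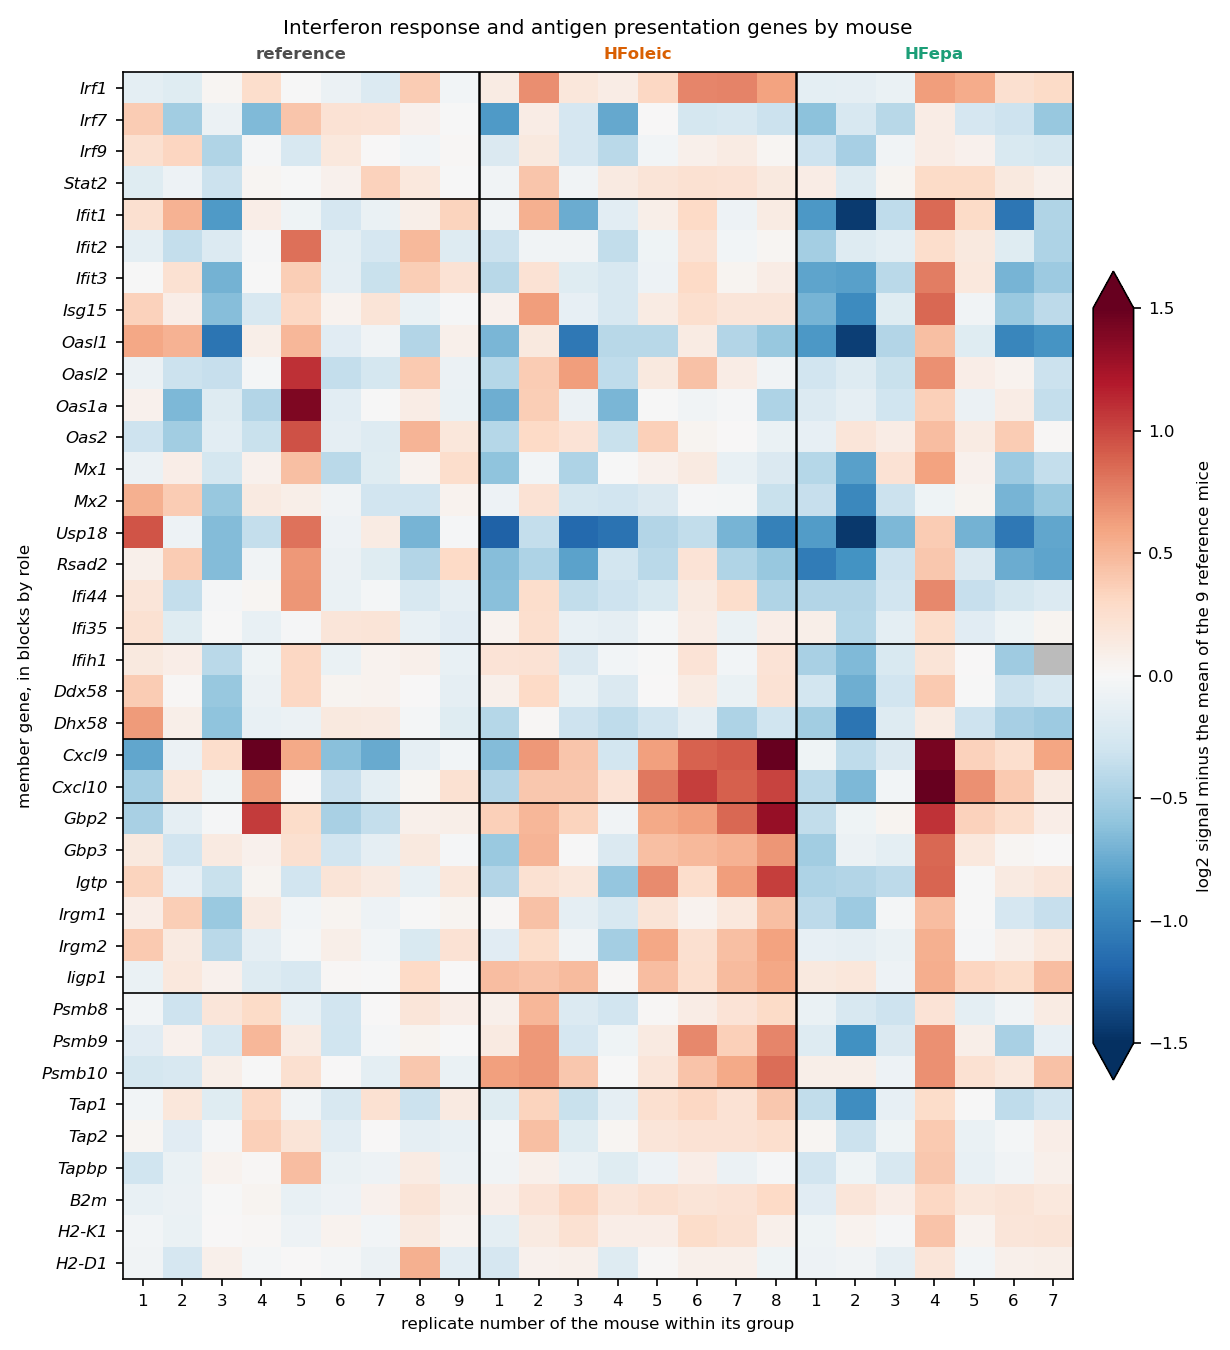
Log2 signal of the 38 genes in each of the 24 mice as the difference from the mean of the 9 reference mice (colour, cut at -1.5 and 1.5), with genes in blocks by role; grey is a value left out. HFepa replicate 4 and HFoleic replicate 8 are high over many genes, HFepa replicate 2 is low over most effectors, and reference replicate 5 is high for Ifit2, Oasl2, Oas1a and Oas2.

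Mice of a group differed from each other more in these genes than in most. The within-group SD had a median of 0.305 over the 38 genes and 0.184 over all probes, and was 0.402 for the antiviral effectors and 0.177 for the class I and loading genes. Over the 37 genes with a value in every mouse, HFepa replicate 4 was the highest of the 24 mice for 11, while it was the highest for 3.76% of all probes. HFepa replicate 2 was the lowest mouse for 15 genes (6.89% of all probes). HFoleic replicate 8 was the highest for 8 (3.14%), among them Gbp2, Iigp1 and Psmb10, but for Usp18 and Rsad2 it lay below the reference mean. HFoleic replicate 1 was the lowest for 6 (5.19%). Reference replicate 5 was the highest for 7, but it was so for 13.1% of all probes.

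The mean of the 38 genes in a mouse, as its deviation from the mean of all mice, ran from -0.24 to 0.27 in the reference group, from -0.22 to 0.30 in HFoleic and from -0.46 to 0.55 in HFepa. The mean difference between HFepa and HFoleic in this score was -0.16, smaller than the pooled SD between mice of 0.237. Without HFepa replicate 4 it was -0.27, and without HFepa replicate 2 it was -0.10. In HFepa replicate 4 the Kupffer cell marker list stood at 0.51, the highest of its group, and the hepatocyte list at -0.23, the lowest. The neutrophil and monocyte (0.58), stellate (0.59), B and plasma cell (0.34), sinusoidal endothelial (0.23) and bile duct (0.21) lists were also highest there. The T and NK cell, dendritic cell, blood, exocrine pancreas and adipocyte lists were highest in other HFepa mice. The part of these lists in that mouse's values was not tested. HFepa replicate 2, the mouse with the lowest mean, had a Kupffer list of 0.27 and a hepatocyte list of 0.10.

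**Figure D5:**
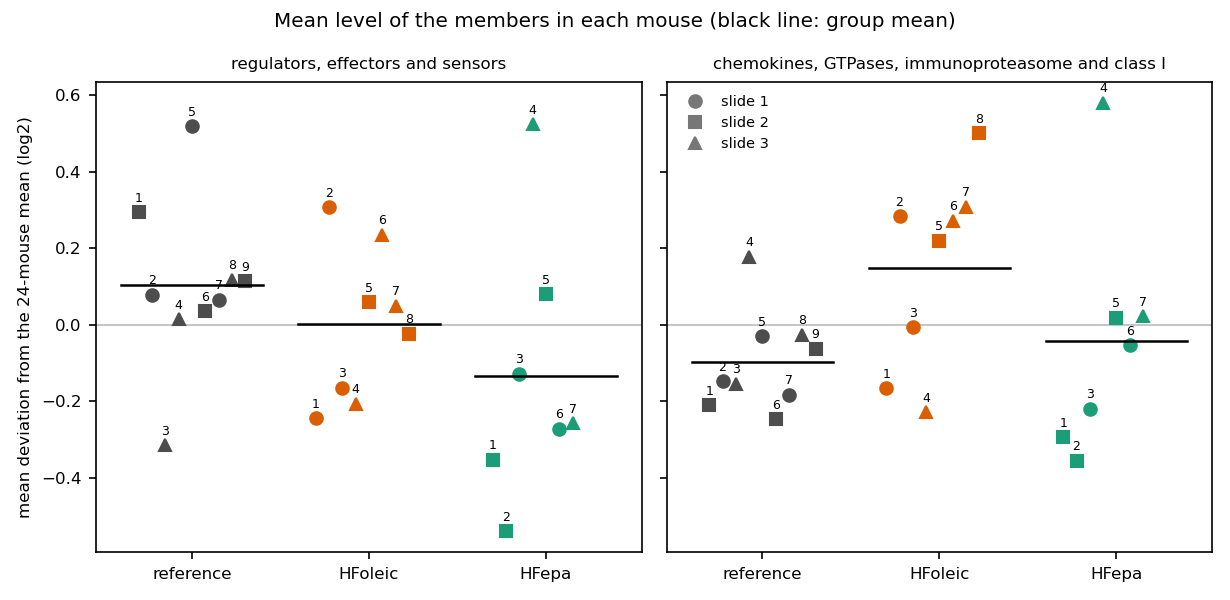
Mean deviation (log2) of the 21 regulators, effectors and sensors and of the 17 chemokine, GTPase, immunoproteasome and class I genes from their 24-mouse mean, for each mouse (numbered by replicate; shape gives the slide, black line the group mean). HFepa replicate 4, on slide 3, is the highest mouse in both panels, and the other 6 HFepa mice lie at 0.08 or lower.

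Markers of the liver's cell types were read beside these genes. Of 11 Kupffer cell and macrophage markers, 9 had higher means in HFoleic and 11 in HFepa than in reference, with medians of 0.16 and 0.25 and none called. Over all probes 49.8% were higher in HFoleic and 51.7% in HFepa than in reference. The level of that list ran from -0.82 to 0.32 in reference, -0.57 to 0.37 in HFoleic and -0.30 to 0.51 in HFepa mice. All 6 tested neutrophil and monocyte markers had higher means in HFoleic than in reference (median 0.22, none called). The T and NK cell list, with 7 of 11 markers above the filter, had a median of -0.12 in HFoleic. Of the 7, 6 were lower and 1, Cd4, was called lower (14.3%, beside 7.23% of all probes). In the same comparison the dendritic cell marker Flt3 and the stellate cell marker Lrat were called higher, at 0.38 and 0.56 (adjusted p = 0.0352 and 0.0015). The bile duct marker Sox9 was called lower, at -0.65 (adjusted p = 0.0279). Each was the 1 called marker of its list (20%, 16.7% and 25%, beside 7.23% of all probes). The rest of these lists was mixed. Of 5 dendritic markers 3 were higher (median 0.09), of 6 stellate markers 3 (median -0.07) and of 4 bile duct markers 1 (median -0.23). All 6 sinusoidal endothelial markers had higher means in HFepa than in reference (median 0.20), where 51.7% of all probes were higher. Of these 6 markers 3 (50%) had an unadjusted p under 0.05, beside 13.5% of all probes, and none was called. Hepatocyte markers were lower in HFoleic for 6 of 8, but unevenly. Cps1 and Tat, at -0.89 and -0.63, were called (25% of the list, beside 7.23% of all probes). Cyp3a11 and Ass1 were at -0.86 and -0.38, Apoa1 at -0.10 and Alb at -0.002, while Ttr and Cyp2e1 were higher, each at 0.12. The list level ran from -0.28 to -0.03 in HFoleic mice and from -0.002 to 0.31 in reference mice. The part of these lists in the members' differences was not tested.

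Upstream of the members, the interferons themselves were near the floor of the array. Of 15 interferon genes on it only Ifna9, Ifna14, Ifnab, Ifnk and Ifnl3 passed the filter, while Ifnb1 and Ifng did not, and none was called in any comparison. Of the 14 receptor, JAK kinase, STAT and related regulatory genes tested none was called by its brightest probe. Tyk2, the kinase of the type I receptor, differed by 0.22 between HFoleic and reference (adjusted p = 0.0616). A dimmer probe of Ifnar2 fell by 0.27 in HFoleic (adjusted p = 0.0438), whereas its brightest probe differed by -0.02. Of 11 genes of nucleic acid and lipopolysaccharide sensing, 1 was called between HFoleic and reference (9.09%, beside 7.23% of all probes). It was Ikbke, a kinase that activates interferon regulatory factors, which rose by 0.40 in HFoleic (adjusted p = 0.0188). Its level in HFepa mice differed from that in the same HFoleic mice by -0.44 (adjusted p = 0.184), so the 2 values are not independent.

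Among 30 other interferon-stimulated genes, 4 were called between HFoleic and reference (13.3%, beside 7.23% of all probes). Gbp6, a guanylate-binding protein, rose from a mean of 7.51 to 8.51 (adjusted p = 0.0133), with 7.81 in HFepa. Its relative Gbp9 rose by 0.51 ± 0.12 (SE, adjusted p = 0.00858), and Oas1b rose by 0.16 (adjusted p = 0.0439). Trim25, the ubiquitin ligase that activates the sensor RIG-I, fell by 0.63 ± 0.13 (SE, adjusted p = 0.00403). Dimmer probes of Trim25 differed by only -0.29 and -0.20 (adjusted p = 0.151 and 0.200). A dimmer probe of Oas1b differed by 0.13 (adjusted p = 0.476). In the same comparison 18 of the 30 had higher means, and against HFoleic 23 of the 30 had lower means in HFepa, with none called there or between HFepa and reference.

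Of 13 other MHC class I and loading genes, 11 had higher means in HFoleic than in reference and 3 were called (23.1%, beside 7.23% of all probes). These were Calr, Canx and Pdia3, chaperones that fold many glycoproteins in the endoplasmic reticulum besides class I heavy chains, which rose by 0.67, 0.31 and 0.57 (adjusted p = 0.00663, 0.00286 and 0.00982). A dimmer probe of the class I gene H2-Q10 was also called, at 0.25 (adjusted p = 0.0333), whereas its brightest probe was not. Other dimmer probes of H2-Q10 differed by 0.21 and 0.18 (adjusted p = 0.0675 and 0.102), and a dimmer probe of H2-Q7 by -0.29 (adjusted p = 0.196). Nlrc5, the transcriptional activator of class I genes, differed by 0.04 (adjusted p = 0.898). All 13 had lower means in HFepa than in the same HFoleic mice, from -0.46 for Calr to -0.01 for H2-Q7, and none was called. Psmb7, the constitutive subunit that Psmb10 replaces, differed by 0.09 between HFoleic and reference (adjusted p = 0.378), beside 0.46 for Psmb10. The 7 MHC class II genes, expressed by professional antigen-presenting cells, had a median of 0.14 in HFoleic and 0.05 in HFepa against reference, with none called and list levels from -1.04 to 0.54 within HFoleic.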

How the data were processed

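Total RNA of 24 livers was labelled with Cy3 and hybridised to Agilent mouse arrays. The authors deposited the scanner text files (Agilent Feature Extraction 10.10.1.1 per the submitters' processing notes), whose median, mean and processed signals are intensities before normalization between arrays, and a log2 table of median signals that the authors filtered and quantile normalised (32176 probes, 2550 empty cells). The filter behind the normalised values is not given in the sources used here. The marks for outlier spots and for signal well above background are scores of 0 or 1, per the file headers. The labels gave each mouse's group and replicate.

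Log2 median signals were averaged over the spots of a probe without control and outlier spots (134 to 627 outliers per array). A probe was kept where 75% or more of the arrays of 1 group measured it well above background (30003 probes), and the arrays were then quantile normalised. A group-means model was fitted to all arrays with limma 3.58.1 (R 4.3.3), with Benjamini-Hochberg adjustment within each comparison and calls at an adjusted p under 0.05. Each gene is given by its brightest tested probe. Of 65 probes of the 38 genes, 56 were tested, and 15 genes had more than 1. Figures were drawn with matplotlib 3.10.9. The number of arrays limits the precision. The fit was checked on simulated data. Marker list levels are means over tested genes of the deviation from the mean over all mice.

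Members and lists were chosen with earlier results of these data known, so no p-value was adjusted over the list alone and none was computed for a list. Named with values were called genes, the gene with the largest t of each role in each comparison, the 3 smallest p of each comparison and called pathway genes. Ifit1, Gbp2, Rsad2, Oasl1, Oas2, Tyk2, Nlrc5, Psmb7, Psmb8, H2-Q7, H2-K1, H2-D1 and the dimmer probes were added after their values were seen. Alternatives were the filter, background correction, the authors' normalised values, slide, slide row and replicate number as blocks, the compared groups alone, the methods' t-test and leaving out each mouse. Leaving out 3 mice together was chosen after seeing the data. Promoter sequences were RefSeq's (GRCm38.p6), matched by symbol; probe coordinates of the files (mm9) were not combined with them. Other columns of the files were not used.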

Additional observations from a re-analysis of the deposited data

Results flagged for a closer look

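In 8 of 114 sets of a gene and a group, 1 mouse lay apart from the rest of its group by Dixon's test, and chance flags about 1 in 20 such sets. Within HFepa this was replicate 4 for Usp18 (10.44, the next mouse at 9.38), Ifi44 (7.85, next 6.92) and Oasl2 (8.86, next 8.27), in each case the highest. In the reference group replicate 5 was highest for Oas1a (11.97, next 10.68), replicate 4 for Gbp2 (9.25, next 8.48) and replicate 8 for H2-D1 (14.98, next 14.53), while replicate 3 was lowest for Irgm1 (10.67, next 11.15). HFoleic replicate 1 was lowest for H2-K1 (16.41, next 16.64).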

How the results depend on the processing

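Over 9 processing alternatives the 38 genes gave 3 to 5 calls between HFoleic and reference and none in the other comparisons. The genes named by the rule kept their sign in the comparisons they were named for, whereas the number of genes higher in HFoleic than in reference ran from 22 to 24 and that of genes higher in HFepa than in HFoleic from 4 to 7. The count was 3 without the filter on dim probes, where Irf1 (adjusted p = 0.0652) and Usp18 (0.0702) were no longer called; the cause was not tested. Usp18 was also lost under the methods' t-test (adjusted p = 0.064) and B2m with the processed signal (0.180). The labels tie no replicate number to a shared litter or day, and the deviations of same-numbered mice correlated at -0.298 to 0.348 over 22 pairs, 3 of them above 0.1. With the replicate number as a block, 3 genes were called and Irf1 and Usp18 were not (0.0542 and 0.0738). The number of all probes called between HFepa and reference, 118 in the design used, was 0 without the filter and with the t-test, 60 with the processed signal, 13 with the compared groups alone, 0 without reference replicate 5 and HFepa replicates 2 and 4, and 0 to 496 when 1 mouse was left out; the cause was not tested. Leaving out 1 mouse gave 3 to 6 called genes and 1601 to 3059 called probes between HFoleic and reference, and 0 to 14 called probes between HFepa and HFoleic. Without the 3 mice together, 5 genes were called between HFoleic and reference and 35 of 38 were lower in HFepa than in HFoleic. The methods' t-test called 0 probes between HFepa and HFoleic after adjustment.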
